A study of Mus musculus with 6 samples.

Results

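A set of 10 genes that switch MAP kinase signalling off again were followed in mouse liver during concanavalin A (ConA) hepatitis: the dual-specificity phosphatase genes Dusp1, Dusp4, Dusp5, Dusp6, Dusp8, Dusp10 and Dusp16, and the inhibitor genes Spry2, Spry4 and Spred1. They were taken by symbol from a table of 14669 gene rows, and all 10 were present and above the level filter for testing. RNA-seq was done on livers of wild-type male C57BL/6J mice aged 8 weeks, with 3 libraries from mice given a plko-scramble plasmid and 3 from mice given plko-shBicd2, a plasmid for a short hairpin RNA against the dynein adaptor gene Bicd2. Every mouse received 25 µg of plasmid in 2.5 ml saline by hydrodynamic injection, a fast, large-volume injection into a vein that brings DNA into part of the liver cells, and 3 days later 15 mg/kg of ConA into a vein. Livers were collected 6 h after ConA, a plant lectin that activates T cells. No library without ConA or without plasmid was analysed here, so the values compare the 2 plasmids within the inflamed liver. The labels do not state that each library is a separate mouse, and the p-values therefore measure the spread between these libraries, which may be technical. Scramble values are given in the order Sc3, Sc4, Sc5, the names of those libraries, and shBicd2 values in the order sh1, sh3, sh6.

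MAP kinases are switched on by phosphorylation of a threonine and a tyrosine in their activation loop, and dual-specificity phosphatases remove both. Dusp5, in the nucleus, and Dusp6, in the cytoplasm, act mainly on the growth factor kinase ERK. Dusp8, Dusp10 and Dusp16 act mainly on the stress kinases p38 and JNK, and Dusp1 and Dusp4, both nuclear, act on ERK as well as on stress kinases. Sprouty and Spred proteins act further up, between growth factor receptors and RAF. Many of these genes are themselves transcribed in response to the kinases they restrain, which closes a negative feedback loop.

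The hairpin's own target was read first. Bicd2 measured 4.14, 3.43 and 3.13 FPKM (fragment counts scaled to gene length and to library size) with scramble against 3.61, 2.57 and 2.97 FPKM with shBicd2. The groups overlapped, and the log2 fold change was -0.17 ± 0.16 (SE; limma adjusted p = 0.624), so a lower Bicd2 level was not detectable in whole liver and shBicd2 below means the libraries labelled so. The read depth, worked out from steps in the FPKM, was 16.03 to 18.93 M reads and overlapped between groups. The hepatocyte gene Alb led the hepatocyte markers, whose summed level was 22428 to 28329 FPKM in scramble and 27949 to 36069 FPKM in shBicd2. These sums overlapped. Of the 8 markers, Apoa1 and Ttr were higher with the groups apart, which held for 5.7% of all genes tested. The others overlapped, and Apob, Cps1, Cyp2e1 and Hnf4a were lower in sh1 than in every scramble library.

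All 10 DUSP and Sprouty genes had lower mean levels in shBicd2, with log2 fold changes, on the log2(FPKM + 1) scale, from -0.19 (Spry4) to -1.74 (Dusp4) and a median of -1.20. None passed an adjusted p of 0.05 in limma, where the adjustment runs over all 10152 genes tested, and of all those genes 0% passed. At an unadjusted p below 0.05, 8 of the 10 were lower, all but Dusp1 and Spry4, against 12.7% of all genes tested. For the same 8 genes every shBicd2 library lay below every scramble library, which held for 18.7% of all genes tested. With median-of-ratios size factors 7 of the 10 were lower and apart, without Spred1, against 10.9% of all genes tested. With quantile normalization it was 6, without Spred1 and Spry2, against 11%, and Spry2 also missed the unadjusted threshold, which left 7. The background itself moved with the scaling: 1291 genes were lower and 302 higher at that p, against 797 and 686 with median-of-ratios size factors and 812 and 693 with quantile normalization. A negative fold change was found for 58.6% of all genes tested, whose median was -0.06. Dusp4, Dusp5 and Spry2, which are among the 8, passed the level filter, a mean of 1 FPKM over all 6 libraries, only through their scramble values. Their shBicd2 means were 0.944, 0.891 and 0.992 FPKM. The genes were chosen with earlier results of these data known, so their counts describe them and are not a test of the group. In whole liver, fewer cells that carry these transcripts and less of the transcript per cell cannot be told apart.

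**Figure D1:**
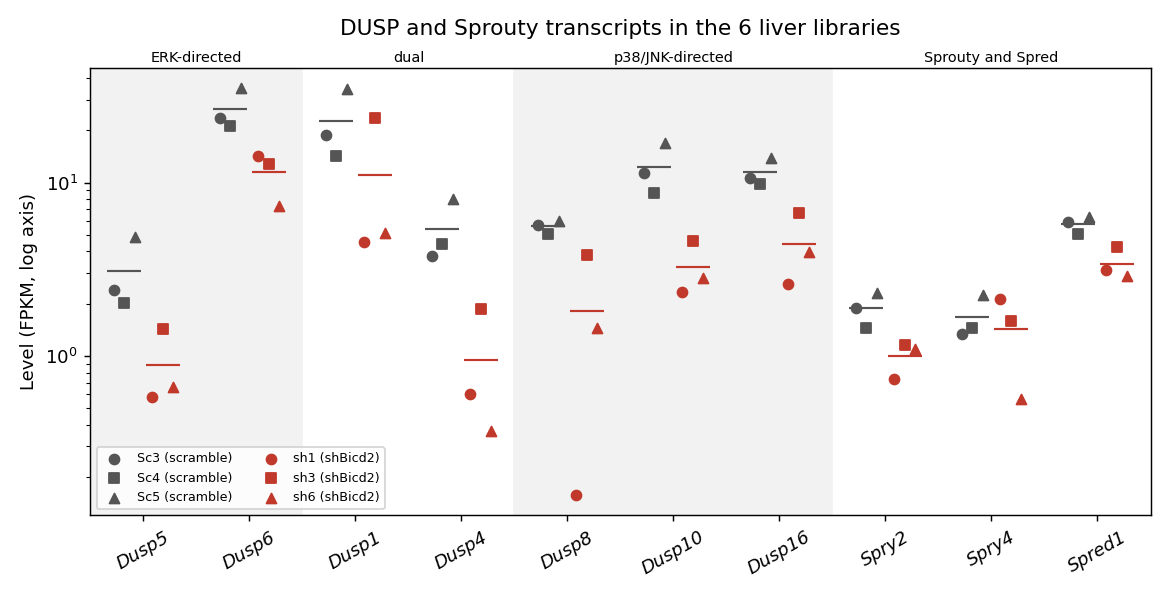
Level of each gene (FPKM, log axis) in the 3 scramble libraries (grey) and the 3 shBicd2 libraries (red), with a symbol for each library and a line at each group mean. Sc5 is the highest scramble library for all 10 genes, and the groups are apart for all but Dusp1 and Spry4.

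Promoter sequence was examined because all 10 genes had a lower mean in shBicd2. RefSeq (GRCm38.p6) promoter windows of 8 of the 10 genes, all but Dusp4 and Spry4, were used, and the 250 bases before the start site were searched on both strands. G and C made up 56.4% to 71.6% of the bases in these 8 windows, against a median of 52.4% over all windows. The shares over all windows given here are therefore not matched for base content. The letters of the cAMP response element, TGACGTCA, were in 2 of the 8 windows, those of Dusp1 and Dusp8, and in 1.55% of all 32851 windows. The CArG box, the serum response factor motif, was in the window of Dusp5 and in 1.47% of all windows. The windows of Dusp1, Dusp8 and Dusp5 are shown for these matches, which stand in capitals, and that of Dusp6, the ERK-directed relative of Dusp5, is shown for comparison, without either match. All run 5′ to 3′ along the gene: Dusp1 is chr17:26508473-26508722 on the minus strand, Dusp8 chr7:142095285-142095534 on the minus strand, Dusp5 chr19:53528895-53529144 on the plus strand and Dusp6 chr10:99262981-99263230 on the plus strand.
Dusp1: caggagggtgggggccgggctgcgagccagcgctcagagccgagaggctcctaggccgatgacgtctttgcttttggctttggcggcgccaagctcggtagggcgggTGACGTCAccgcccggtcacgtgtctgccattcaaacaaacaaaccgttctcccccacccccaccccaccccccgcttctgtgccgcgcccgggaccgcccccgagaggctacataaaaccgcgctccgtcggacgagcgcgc
Dusp8: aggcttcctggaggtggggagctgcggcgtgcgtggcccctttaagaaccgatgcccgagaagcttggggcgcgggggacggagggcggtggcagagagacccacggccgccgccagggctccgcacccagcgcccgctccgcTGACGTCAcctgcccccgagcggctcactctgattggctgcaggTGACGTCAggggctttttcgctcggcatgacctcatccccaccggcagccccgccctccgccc
Dusp5: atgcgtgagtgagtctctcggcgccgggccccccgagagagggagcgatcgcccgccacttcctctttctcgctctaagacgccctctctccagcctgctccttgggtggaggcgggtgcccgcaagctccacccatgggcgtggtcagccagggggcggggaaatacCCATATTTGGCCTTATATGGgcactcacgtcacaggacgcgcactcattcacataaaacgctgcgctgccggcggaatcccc
Dusp6: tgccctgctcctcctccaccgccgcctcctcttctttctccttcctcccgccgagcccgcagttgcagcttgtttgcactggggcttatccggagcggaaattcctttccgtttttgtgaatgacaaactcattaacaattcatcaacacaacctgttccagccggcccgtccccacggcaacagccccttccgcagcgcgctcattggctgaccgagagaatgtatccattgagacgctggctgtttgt
Dusp1 held 1 cAMP response element, which begins 143 bases before the start. Dusp8 held 2, beginning 107 and 63 bases before it. Dusp5 held 2 adjoining CArG boxes, beginning 82 and 72 bases before its start. The AP-1 letters TGACTCA and the ETS letters CCGGAA were in 0 of the 8 windows, against 4.46% and 12% of all windows. EGR letters (GCGNGGGCG) were in 1, Dusp16 (4.7% of all windows), glucocorticoid receptor letters (ACA, 3 free bases, TGT, 1 free base and C) in 1, Dusp6 (2.61%), and NF-kB letters (GGGA, 4 free bases and CC) in 4, Dusp1, Dusp5, Dusp6 and Spry2 (17.6%). In Dusp5 the NF-kB match ends on the first base of the CArG pair. The motifs were chosen after the windows had been seen, and a match is only a run of letters.

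The 2 ERK-directed phosphatases were lower in shBicd2. Dusp6 (GRCm38 chromosome 10, 99263231 to 99267489, plus strand), the cytoplasmic ERK phosphatase, was at 23.5, 21.2 and 35.1 FPKM with scramble against 14.2, 12.8 and 7.34 FPKM with shBicd2. All 3 shBicd2 values lay below the lowest scramble value, and sh1 was the highest of them. Its means were 26.6 ± 7.45 and 11.4 ± 3.61 FPKM (SD, n = 3), a log2 change of -1.16 ± 0.29 (SE; 95% interval -1.84 to -0.49; limma adjusted p = 0.182). Dusp5 (chromosome 19, 53529109 to 53542431, plus strand), the nuclear ERK phosphatase with the CArG pair shown above, measured 2.39, 2.03 and 4.87 FPKM with scramble against 0.576, 1.44 and 0.662 FPKM with shBicd2. The groups were again apart, with sh3 nearest to scramble. The shBicd2 mean was 28.8% of the scramble mean, and the log2 fold change was -1.08 ± 0.29 (SE; limma adjusted p = 0.195), or -1.80 with a pseudocount of 0.01 FPKM. Only 26 to 59 reads stood behind each shBicd2 value of Dusp5. Of its 2473 exon bases, 547 are shared with an antisense RNA, AC137853.2, and the counting is not stated to use strand, so reads of the pair cannot be told apart. Smaller overlaps were found for Dusp8 (66 of 4870 exon bases, with Gm32786) and Dusp1 (11 of 3311, with Ergic1).

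The 2 phosphatases that act on ERK and on stress kinases differed in how far the groups were apart. Dusp1 (chromosome 17, 26505590 to 26562128, minus strand), an immediate early phosphatase induced by stress and by glucocorticoids, measured 18.9, 14.2 and 34.5 FPKM with scramble against 4.56, 23.6 and 5.09 FPKM with shBicd2. Library sh3 lay inside the scramble range, while sh1 and sh6 were below the lowest scramble value. The log2 fold change was -1.23 ± 0.60 (SE; 95% interval -2.64 to 0.18; limma adjusted p = 0.373), and -1.92 without sh3 (adjusted p = 0.0469, in a range of 0.00794 to 0.718 over the alternatives). Dusp4 (chromosome 8, 34807297 to 34819894, plus strand), its inducible nuclear relative, measured 3.75, 4.40 and 8.04 FPKM with scramble against 0.599, 1.87 and 0.366 FPKM with shBicd2. Every shBicd2 library was below every scramble library, on 19 to 85 reads. The shBicd2 mean was 17.5% of the scramble mean, the lowest percentage among the 10 genes. Its log2 fold change was -1.74 ± 0.34 (SE; limma adjusted p = 0.152), and -2.76 with a pseudocount of 0.01 FPKM.

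All 3 phosphatases directed at p38 and JNK were lower in shBicd2, with the groups apart for each. Dusp10 (chromosome 1, 184013302 to 184075636, plus strand) measured 11.4, 8.73 and 16.8 FPKM with scramble against 2.34, 4.59 and 2.80 FPKM with shBicd2. The highest shBicd2 value was well under the lowest scramble value, and Dusp10 had the smallest unadjusted p of the 10 genes. Its means were 12.3 ± 4.11 and 3.24 ± 1.19 FPKM (SD, n = 3), a log2 change of -1.64 ± 0.28 (SE; 95% interval -2.30 to -0.98; limma adjusted p = 0.152). Dusp16 (chromosome 6, 134715468 to 134792625, minus strand), which binds JNK and shuttles between nucleus and cytoplasm, measured 10.6, 9.85 and 13.9 FPKM with scramble against 2.58, 6.65 and 3.98 FPKM with shBicd2. Here sh1 was lowest and sh3 nearest to scramble, and the log2 fold change was -1.26 ± 0.29 (SE; limma adjusted p = 0.169). Dusp8 (chromosome 7, 142079490 to 142095843, minus strand), whose window held 2 cAMP response elements, measured 5.70, 5.03 and 6.03 FPKM with scramble against 0.157, 3.82 and 1.44 FPKM with shBicd2. The scramble libraries were close together and the shBicd2 libraries were not, with 14 reads in sh1 and 309 in sh3. Its log2 fold change was -1.46 ± 0.46 (SE; limma adjusted p = 0.218), -0.94 without sh1 and -2.51 with a pseudocount of 0.01 FPKM.

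The inhibitors upstream of RAF had the smaller fold changes on this scale. Spred1 (chromosome 2, 117121374 to 117182279, plus strand), a membrane inhibitor of RAS signalling that works with neurofibromin, measured 5.92, 5.02 and 6.34 FPKM with scramble against 3.12, 4.23 and 2.88 FPKM with shBicd2. The groups were apart, with means of 5.76 ± 0.675 and 3.41 ± 0.722 FPKM (SD, n = 3) and a log2 change of -0.62 ± 0.17 (SE; limma adjusted p = 0.195). Spry2 (chromosome 14, 105891947 to 105896819, minus strand), a Sprouty inhibitor of growth factor receptor signalling, measured 1.89, 1.44 and 2.30 FPKM with scramble against 0.735, 1.15 and 1.09 FPKM with shBicd2. These values were also apart, but rested on 28 to 77 reads. The shBicd2 mean was 52.9% of the scramble mean, and the log2 fold change was -0.53 ± 0.17 (SE; limma adjusted p = 0.217), or -0.91 with a pseudocount of 0.01 FPKM. Spry4 (chromosome 18), its relative, measured 1.34, 1.45 and 2.24 FPKM with scramble against 2.12, 1.58 and 0.567 FPKM with shBicd2. Only sh6 lay below the scramble range, and the groups differed by less than their spread (log2 fold change -0.19 ± 0.27 SE; 95% interval -0.83 to 0.46; limma adjusted p = 0.773). Without sh6 the Spry4 fold change turned positive, at 0.10.

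**Figure D2:**
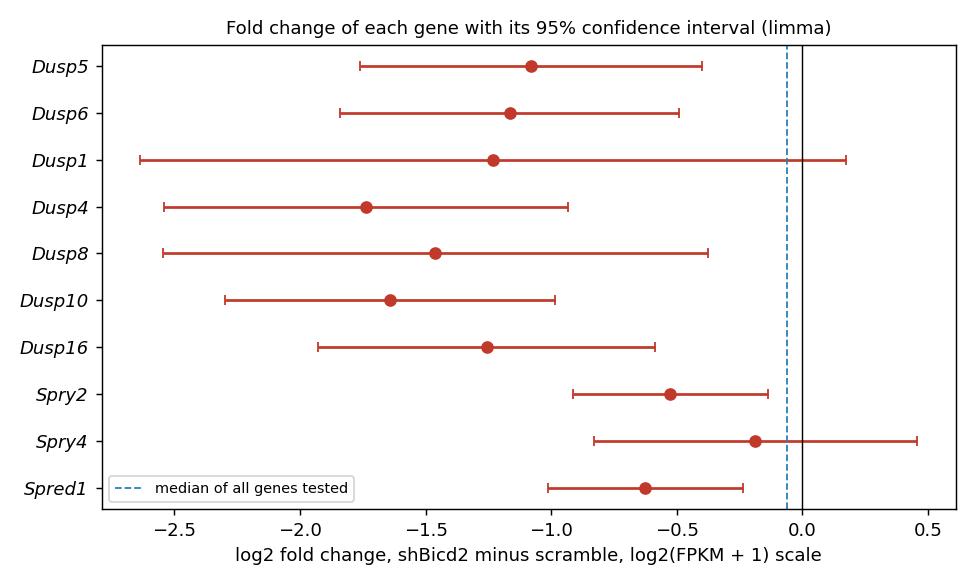
Log2 fold change (shBicd2 minus scramble, log2(FPKM + 1) scale) of each gene with its 95% interval from limma, not adjusted for the number of genes. The intervals of Dusp1 and Spry4 reach above 0, and those of the other 8 genes stay below it.

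The shBicd2 libraries were not alike. Library sh3 was the highest of the 3 for 8 of the 10 genes and the lowest for 0, whereas over all genes tested it was highest for 22.1% and lowest for 49.4%. Dusp6 and Spry4 were the exceptions, and in both the order from high to low was sh1, sh3, sh6. The lowest shBicd2 library was sh1 for 6 genes and sh6 for 4 (Dusp4, Dusp6, Spry4 and Spred1). In scramble, Sc5 was the highest library for all 10 genes, and over all genes tested for 29.5%. The mean of the 10 genes' centred log2 values was 0.43, 0.29 and 0.92 in Sc3, Sc4 and Sc5 and -0.81, -0.03 and -0.80 in sh1, sh3 and sh6. So sh1 and sh6 lay far below the scramble libraries on this mean, and sh3 lay nearer to Sc4 than to either of them. Without sh3, 5 genes passed the limma threshold (Dusp1, Dusp4, Dusp8, Dusp10 and Dusp16, adjusted p from 0.0347 to 0.0469), in a fit where 289 genes passed in all. With limma's array weights, which were 4.67 for sh6 and 0.18 and 0.28 for sh1 and sh3, all 10 passed (adjusted p from 0.00179 to 0.0296), among 2709 genes. Over all alternatives the adjusted p reached 0.596 for Dusp4, Dusp5, Dusp6, Dusp10, Dusp16 and Spred1, 0.599 for Dusp8, 0.613 for Spry2 and 0.975 for Spry4.

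ERK-directed and stress-kinase-directed phosphatases were next compared within each library, which takes out the scaling between libraries. The summed level of the 7 phosphatases was 76.2, 65.5 and 119 FPKM with scramble against 25.0, 54.7 and 21.7 FPKM with shBicd2. Dusp5 and Dusp6 made up 34.0%, 35.5% and 33.5% of this sum in the scramble libraries and 59.0%, 26.0% and 36.9% in sh1, sh3 and sh6. The scramble shares were nearly equal, and the shBicd2 shares lay on both sides of them. Dusp8, Dusp10 and Dusp16 made up 36.3%, 36.0% and 30.8% in scramble and 20.3%, 27.5% and 37.9% in shBicd2. Dusp6 alone held 56.7% of the sum in sh1, where Dusp8 held 0.63%. In sh3 the largest share was that of Dusp1, at 43.1%, against 21.8% to 28.9% in scramble. Dusp4 had a share of 4.93% to 6.74% in scramble and 1.69% to 3.41% in shBicd2, and Dusp10 one of 13.3% to 15.0% in scramble and 8.39% to 12.9% in shBicd2. Dusp5 had 3.10% to 4.08% and 2.30% to 3.05%, and the shares of these 3 genes did not overlap between groups, while those of the other 4 did. No figure over all genes was computed for such shares, and the genes were chosen with earlier results known, so this count is descriptive. Among the 3, Dusp4 and Dusp5 passed the level filter only through their scramble values.

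**Figure D3:**
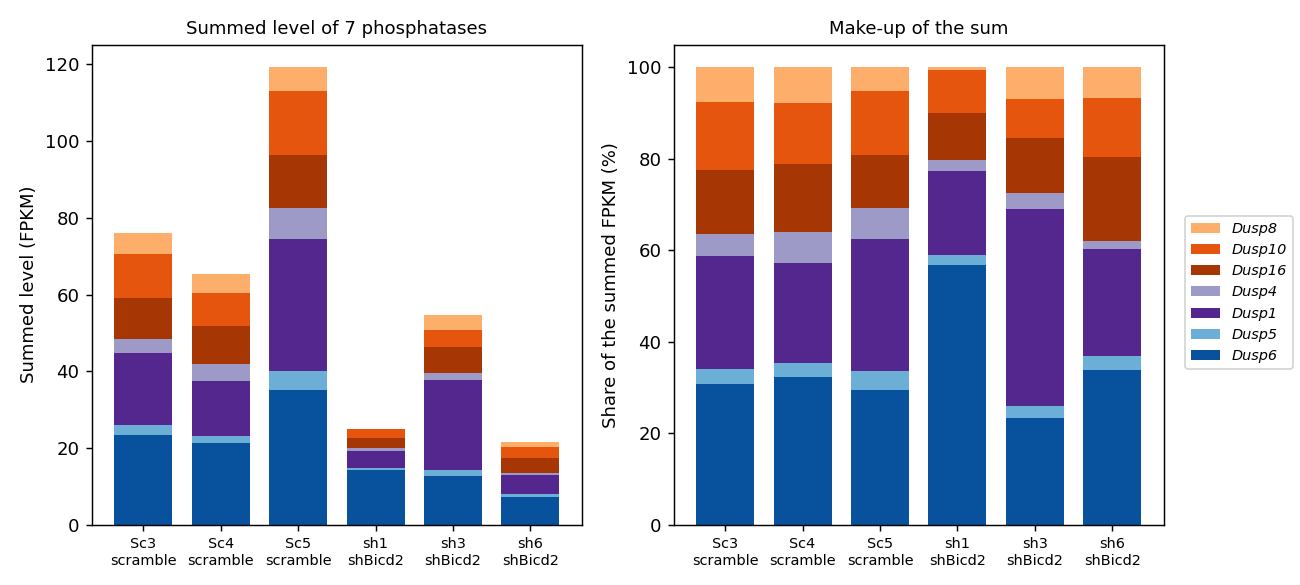
Left, summed level (FPKM) of the 7 phosphatase transcripts in each library, stacked by gene; right, the same as shares of the sum (%). Dusp5 and Dusp6 (blue) hold 33.5% to 35.5% in the scramble libraries and 26.0% to 59.0% in the shBicd2 libraries.

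On the log2(FPKM + 1) scale, the mean of Dusp5 and Dusp6 minus the mean of Dusp8, Dusp10 and Dusp16 was -0.12, -0.07 and 0.24 in Sc3, Sc4 and Sc5. It was 1.03, -0.03 and 0.05 in sh1, sh3 and sh6. Only sh1 lay outside the scramble range, and the group means of 0.02 ± 0.19 and 0.35 ± 0.59 (SD, n = 3) differed by less than the shBicd2 spread. The difference between groups was 0.33 with all libraries and -0.01 without sh1. With Spry2, Spry4 and Spred1 added to the ERK side, the contrast was -0.92, -0.85 and -0.82 with scramble against 0.55, -0.58 and -0.35 with shBicd2, with a difference of 0.74 between the means. Without sh1 that difference was 0.40. No test was made of this contrast, since the genes were chosen with results known.

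By the root-mean-square difference of centred log2(FPKM + 1) values over the 6 libraries, the genes most like Dusp6 were Rhpn2 (0.134), Snai2 (0.169) and Otud1 (0.174). Rhpn2 measured 3.41, 2.50 and 5.20 FPKM with scramble against 2.01, 1.55 and 0.754 FPKM with shBicd2, the same order of libraries as Dusp6. Most like Dusp1 were Pde4b (0.081), a phosphodiesterase that breaks down cAMP, Ankrd37 (0.204) and H3f3b (0.228). Pde4b measured 6.50, 4.92 and 12.3 FPKM with scramble against 1.11, 8.43 and 1.001 FPKM with shBicd2, so sh3 lay inside the scramble range as it did for Dusp1. Dusp16 was nearest to the glycolytic genes Pfkp (0.060), a phosphofructokinase, and Pkm (0.079), pyruvate kinase, and to Vcl (0.086), the adhesion protein vinculin. Pkm measured 53.7, 51.5 and 69.0 FPKM with scramble against 14.5, 31.1 and 20.6 FPKM with shBicd2, with the libraries in the same order as for Dusp16. Among the 10 genes themselves, the nearest were Dusp5 at 0.303 from Dusp6, Dusp8 at 0.462 from Dusp1 and Dusp5 at 0.231 from Dusp16. These were sought among far fewer genes. Their larger distances therefore do not show that the 10 genes are less like each other than like other genes.

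The rest of the pathway was read from lists of 129 other genes, of which 96 were tested. These lists were chosen with earlier results of these data known. Their counts and the order of their medians therefore describe them and are not a test. Fold changes were negative for 77 of the 96, against 58.6% of all genes tested, and list counts are given under the main scaling only. None passed the adjusted threshold, and 25 were lower and 0 higher at an unadjusted p below 0.05, against 12.7% and 2.97% of all genes tested. Among the close relatives of the 7 phosphatases, Dusp2, an inducible nuclear phosphatase, measured 1.29, 1.11 and 1.84 FPKM with scramble against 0.957, 2.16 and 0.738 FPKM with shBicd2. Dusp7, a cytoplasmic ERK phosphatase of the Dusp6 class, measured 1.46, 1.73 and 1.41 FPKM against 2.79, 1.09 and 1.67 FPKM. Both overlapped between groups, with log2 fold changes of -0.12 ± 0.25 and 0.13 ± 0.22 (SE). The 6 tested atypical phosphatases, which lack the kinase-binding domain, had 3 negative and 3 positive fold changes (median 0.04). Of these, Dusp3 measured 12.1, 9.23 and 10.2 FPKM with scramble against 5.52, 4.15 and 7.37 FPKM with shBicd2 (limma adjusted p = 0.191), and Dusp22 had a log2 change of -0.33 ± 0.14 (SE).

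Of 8 tested inhibitors of the RAS-ERK branch outside the 10 genes, 6 were negative (median -0.22). Spred2, the relative of Spred1, measured 2.96, 3.09 and 4.25 FPKM with scramble against 2.07, 1.86 and 1.78 FPKM with shBicd2, with the groups apart (limma adjusted p = 0.185). Lrig1, which promotes the breakdown of ERBB receptors, was at 7.34 ± 1.77 and 4.87 ± 1.39 FPKM (SD, n = 3) and overlapped. All 6 tested growth factor ligands were negative, with a median of -0.77. Tgfa, a ligand of the EGF receptor, measured 7.02, 7.14 and 8.92 FPKM with scramble against 3.26, 4.40 and 3.46 FPKM with shBicd2. Those groups were apart, with a log2 change of -0.89 ± 0.16 (SE; limma adjusted p = 0.152). Btc, betacellulin, another ligand of that receptor, measured 3.33, 2.53 and 5.93 FPKM against 0.436, 2.48 and 0.701 FPKM, with sh3 just under the lowest scramble library.

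The lists of receptors and kinases had medians nearer to 0 than that of the ligands. Receptor tyrosine kinases had 5 negative and 4 positive genes (median -0.11, and 0.08 without sh3), with Fgfr3 at 3.19 ± 0.671 and 4.78 ± 1.97 FPKM and Fgfr1 at 1.72 ± 0.566 and 1.28 ± 0.346 FPKM (SD, n = 3). In the RAS-RAF-MEK-ERK cascade 12 of 15 genes were negative (median -0.29), and 6 were lower at an unadjusted p below 0.05. Over all genes tested, 58.6% were negative and 12.7% were lower at that p. Map2k1, which encodes the ERK kinase MEK1, measured 22.7, 21.3 and 24.5 FPKM with scramble against 12.1, 17.9 and 15.2 FPKM with shBicd2 (limma adjusted p = 0.209). Its groups were apart. In the p38 and JNK cascade 17 of 20 genes were negative (median -0.22), against the same 58.6%, and 3 were lower at an unadjusted p below 0.05. Mapkapk2, a kinase that p38 activates, measured 65.6, 50.8 and 68.3 FPKM with scramble against 21.6, 52.1 and 35.8 FPKM with shBicd2. Gadd45b, an inducible activator of this cascade, measured 22.9, 33.7 and 55.5 FPKM against 2.31, 32.1 and 6.45 FPKM, and in both genes sh3 lay inside the scramble range.

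The lists of transcripts taken as responsive to the cascades had lower medians than the lists of the cascades themselves. This order is among lists chosen with earlier results known. Of 10 tested ERK-responsive transcripts outside the 10 genes, 9 were negative (median -0.68). Fos measured 10.04, 6.35 and 30.5 FPKM with scramble against 1.61, 4.76 and 1.28 FPKM with shBicd2, and Myc 15.6, 15.5 and 30.1 FPKM against 3.95, 13.3 and 4.01 FPKM. For both transcription factor genes the groups were apart, Sc5 was by far the highest library, and the limma adjusted p was 0.198 and 0.205. All 10 tested p38 and JNK responsive transcripts were negative (median -1.14, but -0.79 without sh1 and -1.70 without sh3). Of these, 3 were lower with the groups apart, against 18.7% of all genes tested. Hspb1, a small heat shock protein gene, measured 26.1, 23.5 and 25.7 FPKM against 10.5, 9.34 and 19.2 FPKM, with sh6 rather than sh3 nearest to scramble. Atf3, a stress-induced transcription factor gene, had a log2 change of -3.15 ± 0.92 (SE; limma adjusted p = 0.201). Glucocorticoid-induced transcripts had 8 of 10 negative (median -0.45, and -0.02 without sh1). Klf9 was at 35.1 ± 3.93 and 21.8 ± 6.95 FPKM, and Zbtb16 at 17.2, 18.4 and 16.8 FPKM with scramble against 1.06, 16.2 and 11.2 FPKM with shBicd2.

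**Figure D4:**
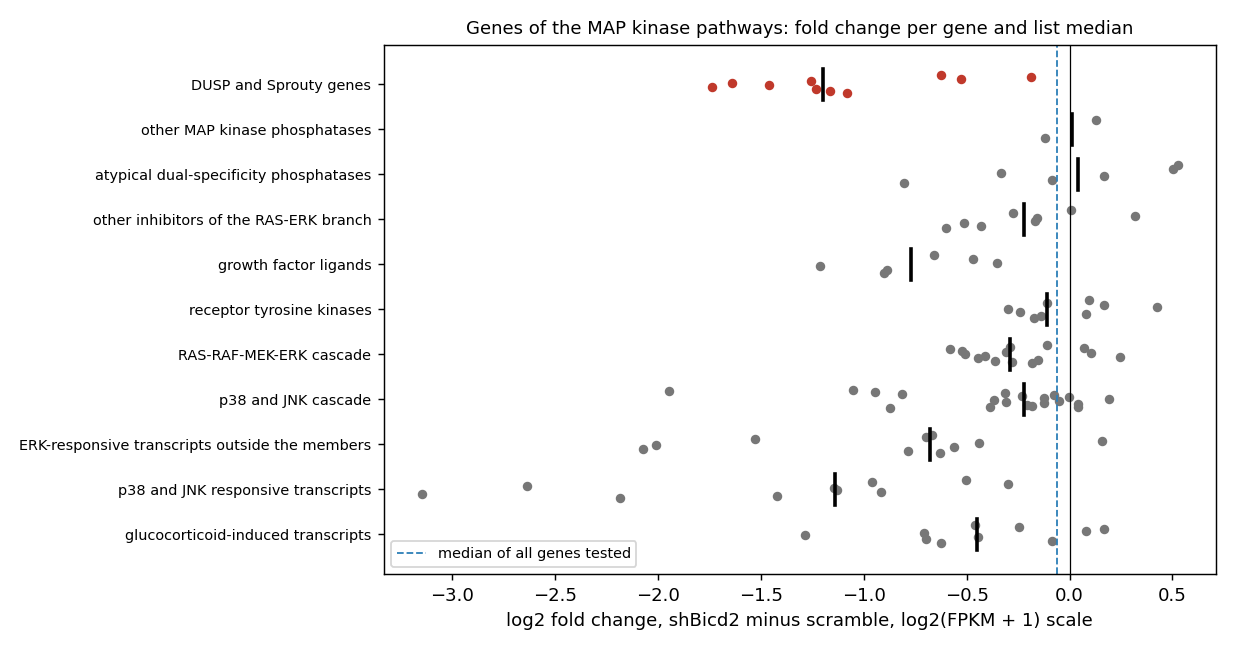
Log2 fold change (shBicd2 minus scramble, log2(FPKM + 1) scale) of each tested gene (points) and the median of each list (black bars), with the median of all genes tested as a dashed line at -0.06. With all 6 libraries, the 10 DUSP and Sprouty genes (red) and the p38 and JNK responsive transcripts have the lowest medians, -1.20 and -1.14. That of the responsive transcripts is -0.79 without sh1.

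Markers of the liver's cell types were set beside these values. Summed neutrophil markers were 367 to 497 FPKM in scramble and 147 to 417 FPKM in shBicd2, and 4 of 7 were lower with the groups apart. The sums overlapped, and S100a9 was the highest marker. S100a8, S100a9 and Retnlg overlapped too, with S100a8 and S100a9 in sh1 and Retnlg in sh3 inside the scramble range. Sinusoidal endothelial markers summed to 26.9 to 36.0 and 18.4 to 23.4 FPKM, with 3 of 7 lower and apart, and stellate cell markers to 38.1 to 47.5 and 26.1 to 30.7 FPKM, with 3 of 7. Among all genes tested, 18.7% were lower with the groups apart. The summed levels of the endothelial and stellate lists did not overlap between groups, but several of their markers did not follow the sums. In the endothelial list Clec4g, Stab1, Stab2 and Tek overlapped, and each was highest in sh1 among all 6 libraries. In the stellate list Col1a1, Des, Lrat and Reln overlapped, with Des highest in sh1 and Lrat in sh6. Cholangiocyte markers (3 of 4 in the table) summed to 8.14 to 13.2 and 3.51 to 6.76 FPKM, but 1 of the 3 was lower and apart, Sox9, which made up most of the sum, while Epcam and Krt7 overlapped. Monocyte markers overlapped in their sum (66.3 to 89.2 and 44.1 to 143 FPKM), in which Lyz2 was at 117 FPKM in sh1, and 2 of 5, Chil3 and Itgam, were lower and apart. Kupffer cell markers (93.2 to 127 and 61.1 to 136 FPKM) overlapped in their sum, with 1 of 8 lower and apart, and so did T and NK cell markers (6.47 to 9.82 and 6.42 to 8.43 FPKM), with 1 of 8 lower and 1 higher. B cell markers (2 of 4 in the table) were at 0.111 to 0.344 and 0.176 to 0.560 FPKM. None of the markers in the table was at 0 in any library, but this holds for every row of the table. The part of these cell types in the DUSP and Sprouty values was not tested.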

How the data were processed

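Liver RNA of 6 libraries was purified with Trizol, made into libraries with a TruSeq RNA kit and sequenced on a NovaSeq, per the labels' protocols. Per the submitters' processing notes, HISAT2 2.0.5, featureCounts 1.5.0-p3 and the mm10 build were used. No source used here gives the annotation or the strand setting. The authors deposited FPKM, 1 column per library. Column names give the group but no labelled replicate, and there were 0 columns of other samples. Every row is above 0 in all 6 libraries.

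Values were taken as log2(FPKM + 1), the 10152 genes whose mean reached 1 FPKM were kept, and the plasmids were contrasted in limma 3.58.1 under R 4.3.3 (eBayes with trend), with Benjamini-Hochberg adjustment over all genes tested and a threshold of 0.05. Reads behind a value come from exon lengths of GENCODE M21 (GRCm38) and, for each library, the depth that turns low values into whole reads: 98.2% of 14339 matched genes were whole in every library within 0.02 of a read. The fit was tested on simulated data. Lists of pathway genes and markers come from textbook knowledge, and the lists and the 10 genes were chosen with earlier results of these data known. All 10 genes are named, and from each pathway list the 2 of smallest p, of which 1 gene is not reported here. For the pattern search, 3 genes were named for each of Dusp6, Dusp1 and Dusp16. Alternatives were other pseudocounts, filters and scalings, eBayes without trend, array weights, voom on recovered reads and leaving out each library. The wider ERK contrast without sh1 was chosen after seeing the data. Figures were drawn with matplotlib 3.10.9.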

Additional observations from a re-analysis of the deposited data

How the results depend on the processing

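Dusp1, Dusp4, Dusp5, Dusp6, Dusp8, Dusp10, Dusp16, Spry2 and Spred1 had negative fold changes under all alternatives that gave a value, and Spry4 ran from -0.40 (without sh1) to 0.10 (without sh6) leaving out 1 library. A minimum mean of 5 FPKM left Dusp1, Dusp6, Dusp10 and Dusp16. Members past the adjusted threshold numbered 0 to 5 when 1 library was left out and 10 with array weights; genes past it numbered 0 to 289 and 2709. The cause was not tested. With 1 library left out a group has 2 samples. Of the genes at an unadjusted p below 0.05, 81% were lower, against 53.7% with size factors, 54% with quantile normalization, 61.7% with array weights and 61.6% without sh3. The median of all genes was -0.16 on the TPM scale. Medians of the RAS-ERK inhibitors were -0.27, -0.27, -0.15, -0.35, -0.33, -0.15, -0.12, -0.18 and -0.28 with a pseudocount of 0.1 or 0.01, no filter, a mean of at least 5 FPKM, TPM, size factors, quantile normalization, array weights and voom, and -0.26 to -0.20 leaving out 1 library. Those of the p38 and JNK cascade were -0.27, -0.28, -0.34, -0.36, -0.15, -0.13 and -0.28 with a pseudocount of 0.1 or 0.01, a mean of at least 5 FPKM, TPM, size factors, quantile normalization and voom. The other MAP kinase phosphatases had -0.15 with array weights, growth factor ligands -0.41 with no filter, and receptor tyrosine kinases 0.08 with a mean of at least 5 FPKM and -0.16 to 0.08 leaving out 1 library. The contrast of ERK-directed with p38/JNK-directed phosphatases ran from -0.01 to 0.52 leaving out 1 library. No paired analysis was possible because the columns carry no labelled replicate number, so the replicate block was not run. Low reads limit Dusp4, Dusp5, Dusp8 in sh1 and Spry2.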
